A study of Homo sapiens with 18 samples.

Results

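SMOC1 and 6 genes related to it or to SPARC were followed over 18 arrays of SKOV-3, an established cell line of human ovarian carcinoma. The genes are SMOC1, SMOC2, SPARC, SPARCL1, SPOCK1, SPOCK2 and FSTL1, and every probe set annotated to 1 of these symbols alone was used, which gave 13 of the 54613 probe sets of the array and 7 of its 19775 genes. They were chosen by name with results of these same data in view, and SMOC1 was selected on its intensities after LH, so the values of SMOC1 are a description and carry no test.

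The arrays form 6 groups of 3. LHR+ cells are SKOV-3 cells stably transfected with the luteinizing hormone (LH) receptor. They were taken without LH or after 1, 4, 8 or 20 h with LH at 50 ng/ml, and these 4 groups are written LH1, LH4, LH8 and LH20. LHR- cells lack the transfected receptor, and they are described as the parent line in one place of the study and as mock-transfected cells in another, so receptor, transfection and selection cannot be told apart in LHR+ against LHR-. Whether the LHR+ line is 1 clone is not given in the sources used here. LHR+ cells without LH are a single group, so time in culture cannot be told apart from LH. The study describes the arrays as independent replicates. The probe set for LHCGR, the gene of the receptor, stayed at or under 4.11 in all 18 arrays, LHR+ included, and therefore checks no label. Of 11 epithelial and ovarian carcinoma markers, 2 stayed under 50 in every array (MUC16 and MSLN). The summed intensity of all 11 lay between 23576 and 39062, highest at LH20. In LHR+ over LHR- cells 1 of the 11 was called higher and 2 lower by the rule given below, beside 3.36% and 2.60% of all genes. Of 9 fibroblast markers none stayed under 50 in every array, and COL1A1 lay between 12158 and 17276. The 4 leukocyte and 5 endothelial markers measured stayed under 50 in every array.

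Matricellular proteins are secreted into the matrix but act on cells and growth factors rather than as scaffold. The SPARC family shares an extracellular calcium-binding domain and a follistatin-like domain. SPARC (osteonectin) binds collagen and loosens cell adhesion, SPARCL1 (hevin) is its nearest relative, and SPOCK1 and SPOCK2 (testicans) are proteoglycans that carry the same domains. SMOC1 and SMOC2 carry thyroglobulin-like domains as well, and SMOC1 restrains bone morphogenetic protein (BMP) signaling in frog embryos. FSTL1 is a more distant relative that binds BMP ligands. LH acts in the ovary through a G protein-coupled receptor that raises cAMP, and cAMP acts on many genes through the cAMP response element (CRE) bound by CREB.

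The 2 SMOC promoters are shown because SMOC1 and SMOC2 are close paralogs with different levels over the LH times. The sequences are from RefSeq on build GRCh38.p14, 5′ to 3′ on the plus strand, and each covers the 250 bases before the start site. Capitals mark the core of the CRE, TGACG, which reads CGTCA where it lies on the opposite strand. The SMOC1 window is chr14:69879166-69879415 and the SMOC2 window is chr6:168440934-168441183.
SMOC1: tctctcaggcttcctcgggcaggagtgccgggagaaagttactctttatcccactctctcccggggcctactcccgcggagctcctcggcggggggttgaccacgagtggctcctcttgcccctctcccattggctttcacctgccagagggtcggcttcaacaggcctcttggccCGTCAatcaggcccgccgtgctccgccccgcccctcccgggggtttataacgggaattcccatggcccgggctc
SMOC2: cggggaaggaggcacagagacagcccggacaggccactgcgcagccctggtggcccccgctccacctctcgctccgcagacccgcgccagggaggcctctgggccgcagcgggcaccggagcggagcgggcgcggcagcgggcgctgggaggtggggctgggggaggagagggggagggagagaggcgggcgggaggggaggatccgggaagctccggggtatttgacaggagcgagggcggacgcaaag
RefSeq promoter windows, which run from 250 bases before to 50 bases after a start site, were given for 6 of the 7 genes, SPOCK2 with 2 windows. All 7 windows were searched on both strands for the full CRE TGACGTCA, its core TGACG and the AP-1 motif TGACTCA, which FOS and JUN proteins bind. Every full CRE also holds the core. SMOC1 held 1 core, on the strand opposite to the gene at positions -74 to -70, where -1 is the base just before the start site, and no other window of these genes held any of the 3 motifs. Among all 35116 promoter windows of the same length, 24.6% held the core, 1.85% the full CRE and 4.95% the AP-1 motif. A match is a match of letters only, and SPOCK1 was not among the windows.

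SMOC1 was lower in LHR+ than in LHR- cells and, from 4 h onward, many times higher with LH than in either. In LHR+ cells the brighter of its 2 probe sets, 222784_at, had intensities of 94.6, 98.9 and 109, against 277, 230.3 and 300.2 in LHR- cells. The LHR+ arrays lay below all 3 LHR- arrays, and the mean was 101 ± 7.40 in LHR+ cells and 269 ± 35.6 in LHR- cells (SD, n = 3 each). On the log2(intensity + 1) scale the change was -1.40 with a standard error (SE) of 0.12, or 2.64-fold lower in LHR+ cells.

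After 1 h with LH, 222784_at had intensities of 92.7, 95.2 and 83.8, which overlapped the LHR+ arrays without LH. At 4 h they were 1776, 1526 and 1472, at 8 h 2585, 2362 and 2297, and at 20 h 4339.8, 4729 and 4878. All 3 arrays of each of these times lay above all arrays of the time before and above every LHR- array. Against LHR+ cells without LH the log2 fold change was -0.15 at LH1, 3.96 at LH4, 4.57 at LH8 and 5.51 at LH20 (SE 0.12 for each), which is 15.6-fold, 23.7-fold and 45.7-fold at the last 3 times. Ordered from the largest rise among the 54613 probe sets, 222784_at stood 15th at LH4, 2nd at LH8 and 6th at LH20.

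On the log2 scale most of the climb lay between 1 and 4 h. The log2 fold change was 4.12 for LH4 over LH1, 0.60 for LH8 over LH4 and 0.94 for LH20 over LH8. At 20 h the level was 17.3-fold above that of LHR- cells, a log2 fold change of 4.11. From low to high the groups ran LH1, LHR+, LHR-, LH4, LH8 and LH20, and LH1 and LHR+ were the one pair of neighbours whose arrays overlapped. The 4 comparisons with LH and the comparison with LHR- share the 3 LHR+ arrays, so their values are not independent.

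**Figure D1:**
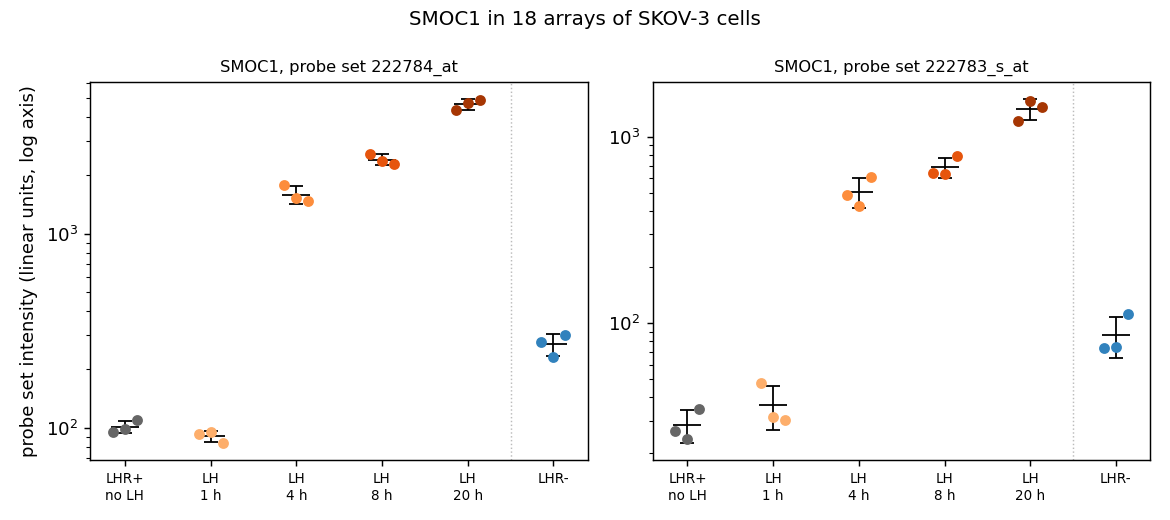
Intensity of the 2 SMOC1 probe sets in each of 18 arrays, on a log axis, for LHR+ cells without LH, the 4 LH times and LHR- cells. Points are arrays, bars are the mean and SD of 3 arrays, and for 222784_at the LH20 arrays sit between 4339.8 and 4878 against 94.6 to 109 in LHR+ cells without LH.

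The second SMOC1 probe set, 222783_s_at, followed the same course, with a Pearson correlation of 0.9932 to the first over the 18 arrays. Its mean intensity was 28.4 ± 5.58 in LHR+ cells without LH, 36.4 ± 9.67 at LH1, 507 ± 92.4 at LH4, 685 ± 87.3 at LH8, 1412 ± 174 at LH20 and 86.6 ± 21.6 in LHR- cells (SD, n = 3 each). Its log2 fold change was -1.56 for LHR+ over LHR-, 0.33 at LH1, 4.11 at LH4, 4.55 at LH8 and 5.59 at LH20 (SE 0.22). LH1 and LHR+ overlapped here as well and stood in the other order. The fold at a low base depends on the value added before the logarithm, and with 16 added in place of 1 the LH20 change of this probe set was 5.01 and that of 222784_at was 5.32.

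The other 6 genes, with 11 probe sets, were read through a limma fit to all 54613 probe sets with Benjamini-Hochberg adjusted p-values over all of them. A probe set was called where p was under 0.05, the adjusted p under 0.1 and the fold at least 2, and where the 3 arrays of one group lay wholly above those of the other. In LHR+ against LHR- cells, 3 of the 11 probe sets were called, all 3 lower in LHR+ cells, where 3.36% of all probe sets were called and 1.52% were called lower. By gene these were SPARC, with 2 probe sets, and SPOCK1, where 2.60% of all genes had a probe set called lower. Against LHR+ cells without LH none of the 11 was called at LH1, LH4, LH8 or LH20, where 0.482%, 1.89%, 1.52% and 7.06% of all probe sets were called. In LHR+ over LHR- 4 of the 11 did not overlap, beside 24.3% of all probe sets. In the 4 comparisons with LH the adjusted p was under 0.1 for 0, 0, 1 and 3 of the 11, beside 0.787%, 6.02%, 5.80% and 24.0% of all probe sets. Their arrays did not overlap for 2, 2, 2 and 6 of the 11, beside 13.1%, 22.4%, 21.8% and 35.2% of all probe sets. From one LH time to the next, LH4 over LH1, LH8 over LH4 and LH20 over LH8, none of the 11 was called. The calls over all probe sets there were 1.52%, 1.17% and 4.27%. The adjusted p was under 0.1 for 0, 1 and 1 of the 11, beside 4.58%, 4.15% and 17.0% of all probe sets. The unadjusted p was under 0.05 for 1, 4 and 2, and no share over all probe sets is given at that bound. In LH20 over LHR- 1 was called higher and 2 lower, and the share of all probe sets called was 8.90%. The median log2 fold change of the 11 was -0.05 in LHR+ over LHR- and -0.01, -0.01, 0.11 and 0.04 at the 4 LH times, beside 0.02 and 0.02, 0.01, -0.03 and 0.00 over all probe sets.

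**Figure D2:**
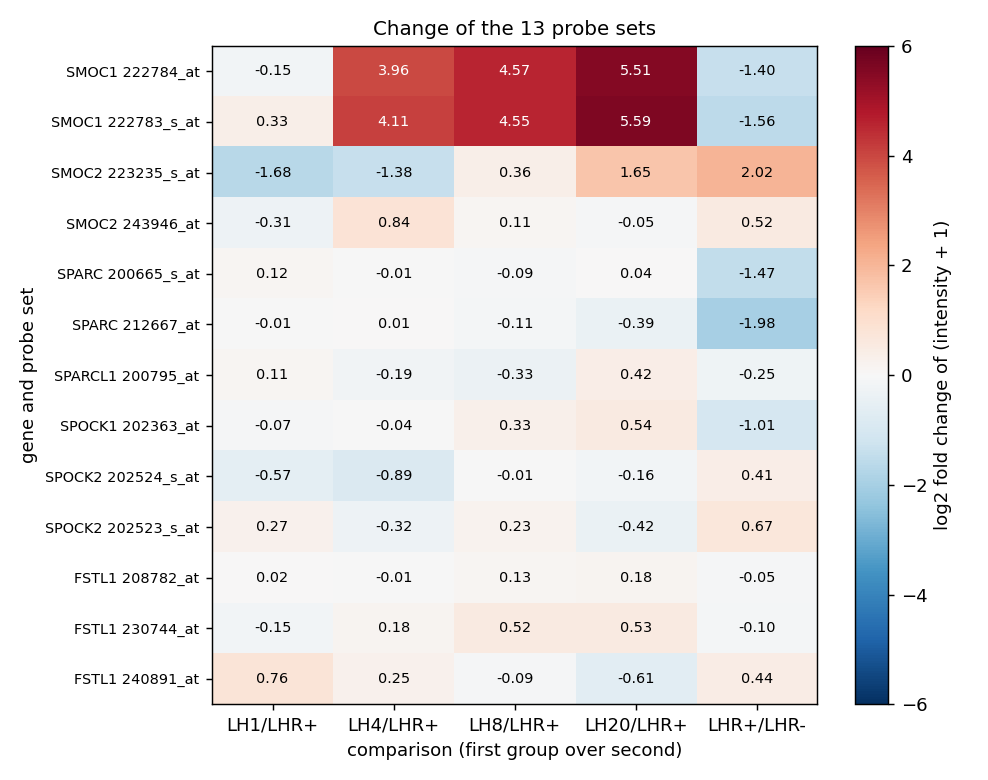
Log2 fold change of (intensity + 1) for each of the 13 probe sets (rows) in LH1, LH4, LH8 and LH20 over LHR+ and in LHR+ over LHR- (columns), as color and number. The 2 SMOC1 rows hold 3.96 to 5.59 from LH4 on, and the SPARC and SPOCK1 rows hold -1.47, -1.98 and -1.01 in LHR+ over LHR- with values between -0.39 and 0.54 after LH.

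SPARC, like SMOC1, was lower in LHR+ than in LHR- cells, but it was not called higher at any LH time. Its brighter probe set, 200665_s_at, had intensities of 2548, 2443 and 2621 in LHR+ cells, against 7058, 6683 and 7368 in LHR- cells. The groups did not overlap, and the log2 fold change was -1.47 (SE 0.10, limma adjusted p = 7.01e-07), 2.77-fold lower in LHR+ cells. The second probe set, 212667_at, had intensities of 507, 589 and 510 in LHR+ cells, against 2069, 2144 and 2131 in LHR- cells. It was 3.95-fold lower in LHR+ cells, with a log2 fold change of -1.98 (SE 0.12, limma adjusted p = 1.80e-07).

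With LH, 200665_s_at stayed between 2227 and 2951 in all 12 arrays, and its log2 fold changes were 0.12, -0.01, -0.09 and 0.04 at LH1, LH4, LH8 and LH20 (SE 0.10, adjusted p by limma between 0.732 and 0.977). The second probe set, 212667_at, had intensities of 391, 431 and 399 at LH20, all below the LHR+ arrays without LH, and a log2 fold change of -0.39 (SE 0.12, limma adjusted p = 0.0305). That change was under the fold of 2 and was not seen in 200665_s_at, although the 2 probe sets had a correlation of 0.9559 over the 18 arrays. At LH20 SPARC was still 2.69-fold and 5.19-fold lower than in LHR- cells by the 2 probe sets, with log2 fold changes of -1.43 and -2.38 (adjusted p by limma 2.83e-07 and 1.08e-08).

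SPARC is abundant in fibroblasts, and most but not all of the fibroblast markers were, like SPARC, lower in LHR+ than in LHR- cells. Of 9 markers, 5 were called lower in LHR+ cells (LUM, DCN, COL1A2, COL3A1 and FAP) and 1 higher (PDGFRB), beside 2.60% and 3.36% of all genes. Their summed intensity was 13551 to 14719 in LHR+ cells and 29368 to 30216 in LHR- cells. At LH20 it was 19901 to 21742, where 4 markers were called higher, beside 5.59% of all genes, and SPARC was not higher at that time. At LH4 and at LH8 2 markers were called higher, beside 2.02% and 1.45% of all genes, and SPARC was not called there either. LUM, a small proteoglycan of collagen fibrils, averaged 223 ± 6.43 at LH20, 21.0 ± 4.64 in LHR+ cells without LH and 5117 ± 472 in LHR- cells (SD, n = 3 each). The part of these markers in the SPARC result was not tested, and in bulk RNA fewer cells of a type and less RNA per cell cannot be told apart.

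SPOCK1, a testican that hinders membrane-type matrix metalloproteinases in cell culture, was the third probe set called lower with the receptor. Its probe set 202363_at had intensities of 1253, 1314 and 1013 in LHR+ cells, against 2389, 2293 and 2467 in LHR- cells. The groups did not overlap and the log2 fold change was -1.01 (SE 0.11, limma adjusted p = 5.08e-05). This is just past the fold of 2, and the call was lost without replicate 3 of LHR+ (-0.89), without replicate 3 of LHR- (-0.98) and with 16 added before the logarithm (-0.997), with adjusted p of 0.000207, 0.000408 and 1.51e-05 by limma.

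With LH, SPOCK1 had intensities of 1121, 1209.7 and 1068 at LH1, 1137, 1175 and 1148 at LH4, 1530.1, 1585 and 1358 at LH8, and 1633, 1758 and 1768 at LH20. The LH1 and LH4 arrays overlapped those of LHR+ cells without LH, and the LH8 and LH20 arrays lay above them. The log2 fold change over LHR+ cells was 0.33 at LH8 (SE 0.11, limma adjusted p = 0.122) and 0.54 at LH20 (SE 0.11, limma adjusted p = 0.00262), both under the fold of 2. At LH20 SPOCK1 was below every LHR- array, with a log2 fold change of -0.47 (limma adjusted p = 0.00538).

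**Figure D3:**
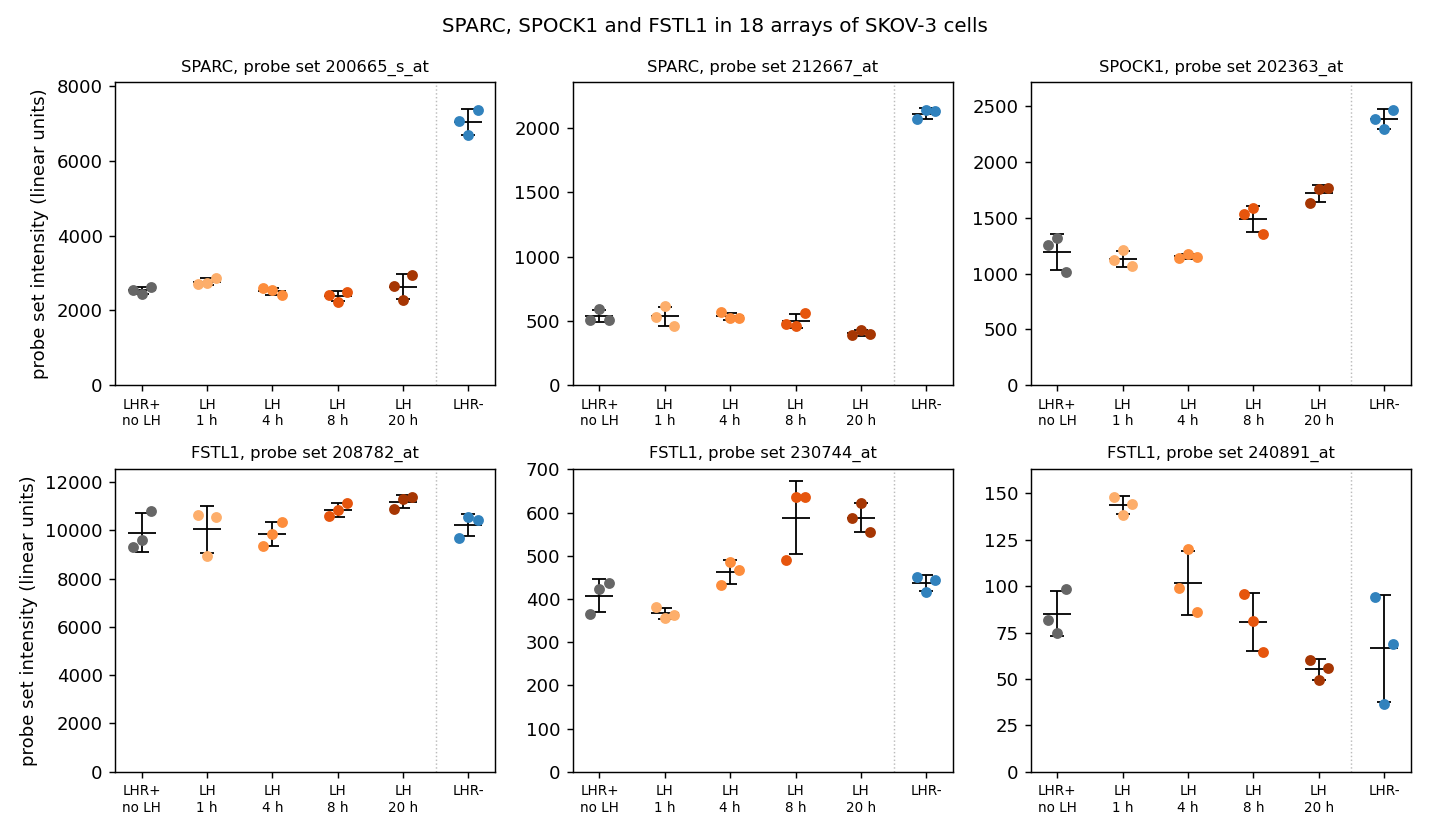
Intensity of the SPARC (2), SPOCK1 (1) and FSTL1 (3) probe sets in each of 18 arrays, linear axes from 0, in the same group order with LHR- cells at the right. Points are arrays and bars the mean and SD of 3 arrays. SPARC 200665_s_at lies at 2227 to 2951 in all LHR+ and LH arrays and at 6683 to 7368 in LHR- arrays, and FSTL1 208782_at at 8922 to 11399 throughout.

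FSTL1, a secreted glycoprotein, was not called in any comparison. Intensities of 208782_at lay between 8922 and 11399 in all 18 arrays, with group means of 11194 ± 261 at LH20, 9905 ± 804 in LHR+ cells without LH and 10219 ± 456 in LHR- cells (SD, n = 3 each). The log2 fold change was 0.18 for LH20 over LHR+ (SE 0.09, limma adjusted p = 0.236) and -0.05 for LHR+ over LHR- (SE 0.09, limma adjusted p = 0.857). The probe set 230744_at was higher at LH8, with intensities from 491 to 637, and at LH20, from 555 to 621, than in LHR+ cells without LH, from 365 to 436. The log2 fold changes were 0.52 and 0.53 (SE 0.11, limma adjusted p = 0.0217 and 0.00459), under the fold of 2. The third, 240891_at, ran the other way. It lay between 138 and 148 at LH1 and between 49.4 and 60.4 at LH20, against 74.8 to 98.5 in LHR+ cells without LH, with log2 fold changes of 0.76 and -0.61 (limma adjusted p = 0.458 and 0.144). Over the 18 arrays 230744_at had a correlation of 0.6667 with 208782_at, and 240891_at had correlations of -0.4504 with 208782_at and -0.5301 with 230744_at, so the probe sets of FSTL1 do not give 1 direction.

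SMOC2, the paralog of SMOC1, was dim in every array, and against LHR+ cells without LH none of its changes was called. Its probe set 223235_s_at had intensities of 9.51, 16.5 and 13.4 in LHR+ cells, against 7.39, 2.10 and 0.507 in LHR- cells. With LH the intensities were 11.2, 1.95 and 1.25 at LH1, 2.48, 7.72 and 3.94 at LH4, 21.8, 30.1 and 6.97 at LH8, and 42.8, 34.4 and 51.9 at LH20. The LH20 arrays lay above all others, with a log2 fold change of 1.65 over LHR+ cells (SE 0.71, limma adjusted p = 0.135), which was not called, and of 3.68 over LHR- cells (SE 0.71, limma adjusted p = 0.00188), which was called. The size over LHR- cells depends on the value added before the logarithm, and was 1.62 with 16 added (limma adjusted p = 0.000111). LHR+ cells lay above LHR- cells with a log2 fold change of 2.02 (limma adjusted p = 0.115). That comparison became called without replicate 1 of LHR- (2.68, limma adjusted p = 0.0473). At 4 h, where SMOC1 stood 15th of all probe sets, SMOC2 was at -1.38 (limma adjusted p = 0.402). The second probe set, 243946_at, lay between 0.609 and 18.8 with no call and a correlation of 0.2212 to the first. The table holds no background or detection value, so it is not known whether these levels lie above background.

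SPARCL1 and SPOCK2 were not called in any comparison. The SPARCL1 probe set 200795_at lay between 28.6 and 68.2 in all arrays. It averaged 60.1 ± 9.26 at LH20 and 35.4 ± 5.90 at LH8 (SD, n = 3 each), a log2 fold change of 0.75 under the fold of 2 (SE 0.22, limma adjusted p = 0.0435). The SPOCK2 probe set 202524_s_at lay between 42.4 and 175, and its LH4 arrays, from 42.4 to 73.4, were below the LHR+ arrays without LH, from 79.2 to 131 (log2 fold change -0.89, SE 0.33, limma adjusted p = 0.188). The probe set 202523_s_at lay between 11.3 and 74.3, with a correlation of 0.1888 to the other. In LH8 over LH4 the first reached a call without replicate 1 of LH8 (log2 fold change 1.22, limma adjusted p = 0.0826), against 0.88 with all arrays (limma adjusted p = 0.220).

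SPOCK3, the remaining testican, was not among the 7 genes and is given because it completes the family. Its probe set 235342_at had intensities of 3.97, 3.00 and 1.12 in LHR+ cells, against 206, 123 and 216 in LHR- cells. The log2 fold change was -5.67 (SE 0.57, limma adjusted p = 3.08e-05), and -3.37 with 16 added before the logarithm (limma adjusted p = 2.14e-08). At LH20 the intensities were 15.0, 29.1 and 17.7, a log2 fold change of 2.58 over LHR+ cells (limma adjusted p = 0.00528), which fell to 0.95 with 16 added before the logarithm. The other 3 probe sets of SPOCK3 stayed under 15 in every array.

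**Figure D4:**
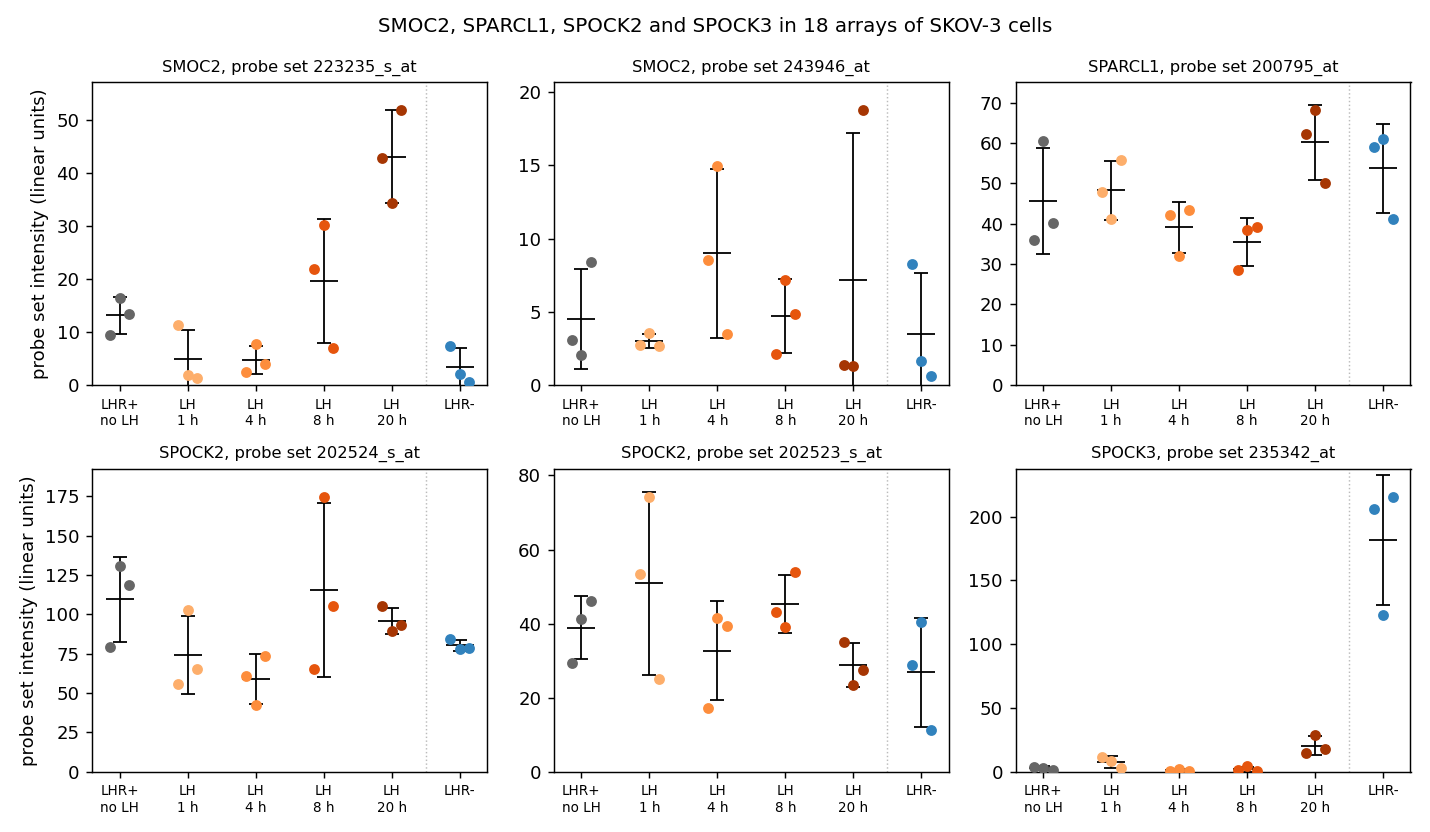
Intensity of the SMOC2 (2), SPARCL1 (1) and SPOCK2 (2) probe sets and of SPOCK3 235342_at in each of 18 arrays, linear axes from 0, groups in the same order. Points are arrays and bars the mean and SD of 3 arrays. SMOC2 223235_s_at reaches 34.4 to 51.9 at LH20, against 9.51 to 16.5 in LHR+ cells without LH, and SPOCK3 lies at 123 to 216 in LHR- cells.

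The BMP pathway, on which SMOC1 and FSTL1 act, was described through 3 lists. A gene of a list was counted where any of its probe sets was called. Of 12 target genes that BMP signaling is known to raise, 2 were called higher at LH1, 4 at LH4, 3 at LH8 and 7 at LH20, beside 0.612%, 2.02%, 1.45% and 5.59% of all 19775 genes. One, BAMBI, was called lower at LH20, beside 6.29% of genes. The median log2 fold change over the 12 was 0.16, 0.31, -0.04 and 0.59 at the 4 times, beside -0.01, -0.01, -0.01 and 0.00 over all genes. The targets called at LH4 were ID2, ID3, ID4 and MSX2, and at LH20 ID1, ID2, ID3, ID4, SMAD6, ATOH8 and RUNX2.

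ID proteins bind and block helix-loop-helix transcription factors. ID3 averaged 301 ± 36.9 in LHR+ cells without LH, 649 ± 145 at LH1, 1912 ± 360 at LH4, 953 ± 55.8 at LH8 and 3216 ± 461 at LH20 (SD, n = 3 each). ID4 averaged 105 ± 17.2 in LHR+ cells without LH, 167 at LH1, 724 ± 156 at LH4, 368 ± 36.3 at LH8 and 1317 ± 61.6 at LH20. Both had a lower mean at LH8 than at LH4, where the mean of SMOC1 was higher. The log2 fold change at LH20 was 3.41 for ID3 and 3.65 for ID4 (adjusted p by limma 1.24e-07 and 1.66e-07). The largest rise of a target at LH8 besides these was that of ID1, with a log2 fold change of 1.27 (SE 0.16, limma adjusted p = 0.000521). BAMBI, a decoy receptor of the TGF-beta family, averaged 449 ± 6.89 at LH20, 1596 ± 43.7 in LHR+ cells without LH and 3522 ± 107 in LHR- cells (SD, n = 3 each), a log2 fold change of -1.83 over LHR+ cells (limma adjusted p = 4.18e-08). For RUNX2 the called probe sets were not the brightest one, which was at 5558 at LH20 and 6503 in LHR+ cells without LH. The ID2 probe set called at LH4 was likewise not its brightest.

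**Figure D5:**
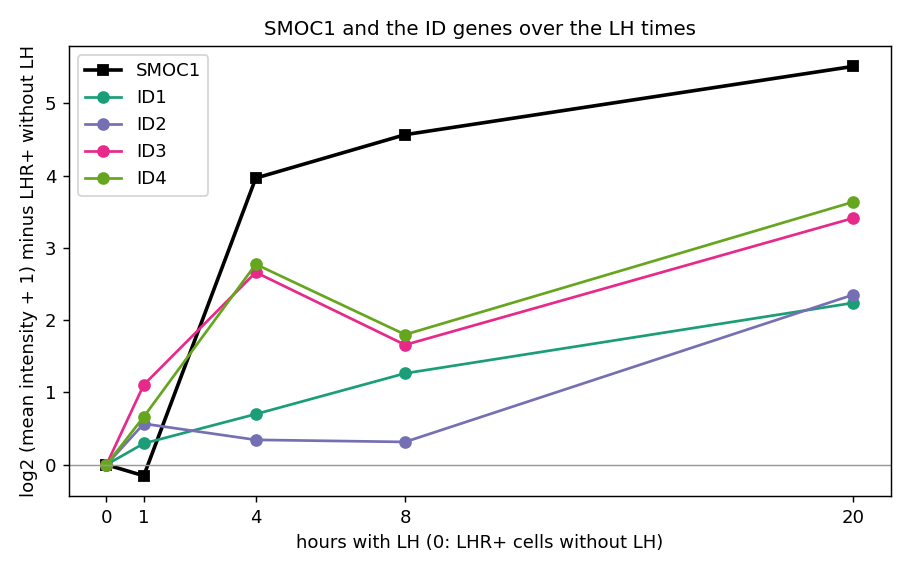
Log2 of the mean intensity plus 1 for SMOC1 (222784_at) and the brightest probe sets of ID1, ID2, ID3 and ID4, minus its value in LHR+ cells without LH, against hours with LH. Each point is a group of 3 arrays. ID3 and ID4 dip at 8 h where SMOC1 goes on upward.

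Of 16 BMP ligands, receptors and SMAD proteins measured, 1 was called higher at LH4 and 1 lower at LH8, beside 2.02% and 1.26% of all genes. The lower one was ACVRL1, by a dim probe set that was not its brightest. It averaged 1.84 at LH8 and 14.0 ± 9.96 in LHR+ cells without LH (SD, limma adjusted p = 0.0959). The higher one was BMP2. BMP2, a ligand, averaged 1299 ± 62.5 at LH4 and 473 ± 54.6 in LHR+ cells without LH (SD, n = 3 each), a log2 fold change of 1.46 (limma adjusted p = 6.05e-06). Of 14 other extracellular BMP antagonists, 1 was called lower in LHR+ than in LHR- cells, 1 was called higher at LH4 and at LH8, and 1 higher and 1 lower at LH20. The shares of all genes called in these directions were 2.60% in LHR+ over LHR-, 2.02% at LH4, 1.45% at LH8, and 5.59% and 6.29% at LH20. FST (follistatin, which binds activins and some BMPs) was the one at the first 3, with intensities averaging 89.3 ± 31.9 at LH4 and 31.7 ± 9.92 at LH8, against 7.21 ± 2.07 in LHR+ cells without LH (SD, n = 3 each), and its log2 fold changes were 3.42 and 1.99 (limma adjusted p = 0.000135 and 0.0121). At LH20 DAND5 was higher by 1.55 and NOG (noggin) fell by 1.98 on the log2 scale (limma adjusted p = 0.00846 and 0.0166).

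Some other matricellular genes and collagens were also lower in LHR+ than in LHR- cells. Of 23 other matricellular genes, 5 were called lower in LHR+ than in LHR- cells and none higher, beside 2.60% of all genes called lower. They were POSTN (periostin, log2 fold change -6.96), PTN (pleiotrophin, -3.92), TNC (tenascin C, -2.38), CCN2 (-1.57) and CCN3, with adjusted p by limma of 7.49e-05, 2.71e-05, 0.000129 and 2.48e-06 for the first 4. POSTN averaged 5.84 ± 2.73 in LHR+ cells and 805 ± 41.5 in LHR- cells (SD, n = 3 each). With LH, 5 were called higher at LH1, 3 at LH4, 1 at LH8 and 4 at LH20, beside 0.612%, 2.02%, 1.45% and 5.59% of all genes, and 4 were called lower at LH20, beside 6.29%. THBS1 was among the higher at LH1, LH4 and LH8 and the lower at LH20, never by its brightest probe set. FBLN1 was called at LH1 by a dim probe set, 28.2 against 13.3 without LH. Its brightest averaged 921 at LH1 and 949 without LH. TNN, called lower at LH20, averaged 0.937 there and 7.30 without LH. CCN2 had the largest rise at LH1, 3.19 on the log2 scale (limma adjusted p = 7.87e-09), a time at which the SMOC1 arrays overlapped those without LH. At LH20, by the brightest probe set of each gene, the largest rise was that of CCN5 (1.93, limma adjusted p = 0.000849) and the largest fall that of CCN1 (-2.06, limma adjusted p = 4.34e-07), while a dimmer probe set of CCN3 rose by 2.21 (limma adjusted p = 6.80e-05).

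Of 16 collagen genes and enzymes that process collagen, listed as partners of SPARC, 5 were called lower in LHR+ than in LHR- cells, beside 2.60% of all genes, none was called at LH1, LH4 or LH8, and 5 were called higher at LH20, beside 5.59% of all genes called higher. COL1A2, a chain of type I collagen, averaged 4180 ± 161 at LH20, 1088 ± 75.9 in LHR+ cells without LH and 7148 ± 47.1 in LHR- cells (SD, n = 3 each). Its log2 fold change was -2.72 for LHR+ over LHR- and 1.94 for LH20 over LHR+ (limma adjusted p = 2.44e-09 and 6.31e-08), whereas SPARC had 0.04 and -0.39 at LH20. COL3A1 (-4.56) and COL5A2 (-2.00) fell furthest beside it in LHR+ cells (limma adjusted p = 0.00252 and 2.20e-06), and LOX, which crosslinks collagen, rose at LH20 by 1.41 (limma adjusted p = 0.000300). COL3A1 lay between 0.411 and 26.1 in LHR+ cells and between 190 and 238 in LHR- cells. At so low a base the fold depends on the value added before the logarithm.

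Of 18 proteases and inhibitors that act on these proteins, 3 were called lower in LHR+ than in LHR- cells, beside 2.60% of all genes, namely TIMP3 (-4.25), MMP13 (-3.83) and MMP2 (-1.23), with adjusted p by limma of 3.45e-12, 4.19e-09 and 0.00398. At LH20, 3 were called higher, MMP13 (1.59), CTSK (1.43) and MMP16 (1.29), and 1 lower, ADAMTS1 (-1.58), beside 5.59% and 6.29% of all genes. Among 21 receptors and surface partners, 1 was called in each of LHR+ over LHR-, LH1, LH4 and LH8 and 2 at LH20. The first was lower, beside 2.60% of all genes, and those at LH1, LH4 and LH8 were higher, beside 0.612%, 2.02% and 1.45%. At LH20 these were 1 higher and 1 lower, a share no larger than the 5.59% and 6.29% of all genes. ITGB3, an integrin chain, fell at LH20, with a log2 fold change of -1.97 (limma adjusted p = 6.93e-05). Of 12 genes that respond to cAMP, 6, 8, 6 and 9 were called higher at LH1, LH4, LH8 and LH20, beside 0.612%, 2.02%, 1.45% and 5.59% of all genes, and none was called lower.

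The genes whose pattern was most like that of SMOC1 222784_at were AQP3, TTC39C, WNT5A, NPR3, ITGB8, PTGES, SIPA1L1 and OSMR. Likeness is the Pearson correlation of log2(intensity + 1) over the 18 arrays, among probe sets with 1 symbol and a highest group mean of at least 100, and it ran from 0.9707 for AQP3 to 0.9557 for OSMR. The 18 arrays fall into 6 groups, so the correlations rest on the group means. The 8 genes were picked by this correlation in these same arrays, so a course shared with SMOC1 follows from the choice. AQP3, a water and glycerol channel, averaged 278 in LHR+ cells without LH, 257 at LH1, 1102 at LH4, 1129.6 at LH8 and 2875 at LH20, and 367 in LHR- cells. PTGES, which makes prostaglandin E2, averaged 63.2 in LHR+ cells without LH, 67.7 at LH1, 312 at LH4, 473 at LH8 and 518 at LH20, and 68.0 in LHR- cells. NPR3, a clearance receptor for natriuretic peptides, averaged 28.7 in LHR+ cells without LH, 38.3 at LH1, 119 at LH4, 195 at LH8 and 308 at LH20, and 39.3 in LHR- cells. All 8 were within 0.41 of no change at LH1 on the log2 scale and higher from LH4 on, and their log2 fold changes at LH20 ran from 0.64 to 3.40, against 5.51 for SMOC1. In LHR+ over LHR- they lay between -0.46 and -0.07, against -1.40 for SMOC1.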

How the data were processed

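Per the labels and the study's methods, RNA from SKOV-3 cells was amplified and hybridized to Affymetrix U133 Plus 2.0 arrays. The deposited values are linear probe set intensities that the authors had summarized, and their scaling is not given in the sources used here. The labels name PLIER and the methods name RMA for the summarizing, and versions are not given in the sources used here. For quality control the methods describe a background filter that 26821 transcripts passed. Whether any filter was applied to the deposited values is not given. Array medians lay between 46.9 and 57.9, correlations between arrays between 0.943 and 0.966, and no 2 arrays were identical. The number of arrays limits the precision.

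Of 54675 probe sets, 62 controls were left out. Intensities were transformed as log2(value + 1) with no further normalization or filter, and 1 mean per group was fitted with limma 3.58.1 in R 4.3.3 to all 18 arrays, with Benjamini-Hochberg adjustment over 54613 probe sets. Gene symbols came from the platform annotation, updated through RefSeq. Of the probe sets, 41091 list 1 symbol, 1801 several and 11721 none, and the last 2 kinds were not named. SE is that of the fit. The study's thresholds were kept. Its Mann-Whitney test cannot reach a two-sided exact p below 0.1 with 3 arrays against 3, and limma, which pools the spread over groups and probe sets, was used in place of the study's tests. Its p-values measure the spread between these arrays.

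The 7 genes, the related lists and the rules were chosen with earlier results of these data known. All probe sets of the 7 genes and of SPOCK3 were named, with the brightest of each gene in full. Per list and comparison up to 3 called genes with the largest rise and 3 with the largest fall could be named, with the 8 genes most like SMOC1, and not all are. Further called genes of the lists, the members of the fibroblast list and the probe sets of RUNX2 and ID2 were picked for naming once their values were known. The fit was tested on simulated data. Alternatives were 16 added before log2, equal array medians, quantile normalization, the 26821 brightest probe sets, 1 probe set per gene, the compared groups alone, no moderation, an intensity trend, no fold threshold, a replicate block and each array left out. Promoters were searched in Python 3.11.15 and figures drawn with matplotlib 3.10.9.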

Additional observations from a re-analysis of the deposited data

How the results depend on the processing

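Of the 11 probe sets of the genes other than SMOC1, 1 was called at LH8 when the fold threshold was dropped (FSTL1 230744_at). At LH20, 3 were called without the fold threshold (FSTL1 230744_at and SPOCK1 higher, SPARC 212667_at lower), 1 with 16 added before log2 and 1 with the 2 groups fitted alone, SMOC2 223235_s_at both times (log2 fold change 1.01 and 1.65, limma adjusted p = 0.00581 and 0.0206). SMOC2 in LHR+ over LHR- was also called with 1 probe set per gene and with an intensity trend (limma adjusted p = 0.0795 and 0.0837). Equal array medians and quantile normalization moved the median of all probe sets by less than 0.1 on the log2 scale.

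The labels number the replicates and do not say what same-numbered arrays share. Same-numbered arrays had correlations of their deviations between -0.0254 and 0.0471 over 45 pairs, and with the replicate block 3 of the 11 were called in LHR+ over LHR- and 0 at each LH time. For SMOC1 222784_at the log2 fold change of LH20 over LHR+ lay between 5.32 and 5.57 over the alternatives. Of 279 values of SMOC1 under the alternatives, 9 moved by more than the spread between replicates, all with 16 added. Of 1503 values of the other 6 genes, 3 lost a call and 14 gained one, and none changed sign among called values. The constant added before log2 decides calls of SMOC2 and SPOCK3, whose intensities are low, and no background value is in the table. It also decides the call of SPOCK1 in LHR+ over LHR-, which is not dim but lies just past the fold of 2.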
